A study of Rattus norvegicus and Mus musculus with 12 samples.

Results

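Glucocorticoid-related genes were followed in cultured chondrocytes of 2 species before and after stimulation with IL-1β, an inflammatory cytokine. The group held 9 genes, taken by symbol: Sgk1, Fkbp5, Tsc22d3, Nr3c1, Nr3c2, Hsd11b1, Klf9, Zbtb16 and Errfi1. A row of the deposited tables was taken when its gene name was one of these. In this way 8 of the 19687 genes of the rat table and 9 of the 28603 genes of the mouse table were taken. Rat Nr3c1 was not analysed here, because no rat row used carried that symbol. The genes had been chosen with the response of these same libraries known, so their changes are given as a description, without a test.

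The libraries came from passage 1 chondrocytes, isolated from the articular cartilage of newborn Sprague-Dawley rats and C57BL/6 mice. The rat control group (RC) and the mouse control group (MC) were unstimulated, while the rat model group (RM) and the mouse model group (MM) received 20 ng/ml IL-1β for 24 h. Each of the 4 groups had 3 libraries. All cells grew in DMEM with fetal bovine serum, and no source used here names an added glucocorticoid or gives the steroid content of the serum. The strain labels of the mouse libraries vary from C57BL/6 to C57BL/9, and the study's methods name C57BL/6 only. Total counts ranged from 16841580 to 25903459 reads per library. The study describes the samples as independent, but whether each came from separate animals was not given in the sources used here, so the spread between them may be partly technical.

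Glucocorticoids act mainly through the glucocorticoid receptor, the product of Nr3c1, which is held by chaperones in the cytoplasm and, once bound by hormone, moves to the nucleus and changes transcription. The enzyme encoded by Hsd11b1 regenerates active glucocorticoid inside cells, and the mineralocorticoid receptor, encoded by Nr3c2, binds the same hormones. Sgk1, Fkbp5, Tsc22d3, Klf9, Zbtb16 and Errfi1 are well known as genes that glucocorticoids induce, although several of them also respond to growth factors, cell stress or cytokines. In cartilage, glucocorticoids are used as anti-inflammatory drugs.

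The rat start regions of 4 of these genes are shown because they carry the most different patterns described below, Sgk1 and Fkbp5 with opposite changes in the 2 species, Errfi1 with the highest level after IL-1β among the genes measured in each, and Tsc22d3 as a classical glucocorticoid-induced gene. Each is the 250 bases before an annotated RefSeq start in the rat assembly GRCr8, written 5′ to 3′ on the gene's strand. Sgk1 and Tsc22d3 had other annotated starts, whose windows were searched but are not printed. Their printed windows hold a TATA box, which not all of their other windows did. Which start these cells used was not examined. Capitals mark a TATA box (TATAAA, forward strand only) or a CRE core (TGACGT, on either strand).
Sgk1, chr1:24804832-24805081 (minus strand): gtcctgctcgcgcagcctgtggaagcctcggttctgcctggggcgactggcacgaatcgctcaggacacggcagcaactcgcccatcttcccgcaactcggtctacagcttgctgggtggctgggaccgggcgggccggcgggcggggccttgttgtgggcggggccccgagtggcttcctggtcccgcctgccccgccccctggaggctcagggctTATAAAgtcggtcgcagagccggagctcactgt
Fkbp5, chr20:6543556-6543805 (minus strand): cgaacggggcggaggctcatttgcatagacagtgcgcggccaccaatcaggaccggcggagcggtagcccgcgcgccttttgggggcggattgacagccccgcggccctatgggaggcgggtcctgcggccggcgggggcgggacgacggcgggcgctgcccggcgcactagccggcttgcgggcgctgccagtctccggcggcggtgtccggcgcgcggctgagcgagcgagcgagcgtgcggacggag
Errfi1, chr5:166606591-166606840 (plus strand): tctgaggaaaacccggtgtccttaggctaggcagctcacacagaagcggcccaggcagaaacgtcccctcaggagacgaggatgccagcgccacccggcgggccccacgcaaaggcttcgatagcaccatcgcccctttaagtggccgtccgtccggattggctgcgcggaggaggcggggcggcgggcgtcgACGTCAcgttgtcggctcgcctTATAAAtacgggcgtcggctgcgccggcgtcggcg
Tsc22d3, chrX:109010035-109010284 (minus strand): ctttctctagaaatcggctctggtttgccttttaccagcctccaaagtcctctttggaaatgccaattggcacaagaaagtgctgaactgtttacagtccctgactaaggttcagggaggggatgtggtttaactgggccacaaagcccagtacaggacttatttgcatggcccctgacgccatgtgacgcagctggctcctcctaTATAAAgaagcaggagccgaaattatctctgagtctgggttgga

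The search covered windows from 250 bases before to 50 bases after the start. The RefSeq table held such windows for 6 of the 9 genes, and 9 windows of Sgk1, Klf9, Errfi1, Fkbp5 and Tsc22d3 were searched. The motifs were chosen after the expression values were known. The palindromic glucocorticoid response element (AGAACA, 3 bases of any kind, then TGTTCT) was found in 0.0149% of all 33469 windows and in none of these 9, and its half-site AGAACA was found in 20.7% of all windows and in none of these 9. Nor did any of the 9 hold the relaxed element (GNACA, 3 bases of any kind, then TGTNC), present in 0.439% of all windows, or the only form of the NF-kB motif that was searched (GGGAN followed by TTTCC), present in 0.362%. All of these were searched on both strands, and any match of the palindrome is also a match of its half-site. These letters can lie elsewhere near the genes, since only the start windows were read. The CRE core was found in 7.94% of all windows. It was present in the windows of Errfi1, 57 bases before the start, and Klf9, 79 bases before it. The AP-1 motif TGANTCA, searched on both strands, was found in 7.33% of all windows and lay in 1 of the 3 Sgk1 windows, 26 bases after the start, and in that of Klf9, 122 bases before it. The TATA box was found in 8.8% of all windows and in 4 of the 9 windows of these genes. They were 2 of the 3 Sgk1 windows, the Errfi1 window and 1 of the 3 Tsc22d3 windows. A match of letters is a description and not evidence that a factor binds there.

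In the mouse, the FPKM lengths of 7 of the 9 genes equalled the merged exon lengths of the GENCODE M21 annotation (GRCm38), so their positions are given from it. Sgk1 lies on the plus strand at chr10:21882184-21999903, Errfi1 on the plus strand at chr4:150853919-150868892 and Nr3c2 on the plus strand at chr8:76899442-77245012. Fkbp5 lies on the minus strand at chr17:28399094-28517527, Tsc22d3 at chrX:140539528-140600659, Hsd11b1 at chr1:193221634-193264075 and Zbtb16 at chr9:48654297-48836222, all on the minus strand. Counts were summed over the exons of each gene. Only Nr3c2 shared exonic bases with another annotated gene, 247 bases with the antisense gene Gm10649, which itself had 1 read in the whole mouse table.

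The plot of levels by library shows the 9 genes at once. FPKM values, counted reads scaled by gene length and by the library's total, allow genes to be compared within a library. They were not compared between rat and mouse, since the lengths the authors used for 1 gene differ widely between the species, for example 3387 bases for rat and 9468 bases for mouse Fkbp5.

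**Figure D1:**
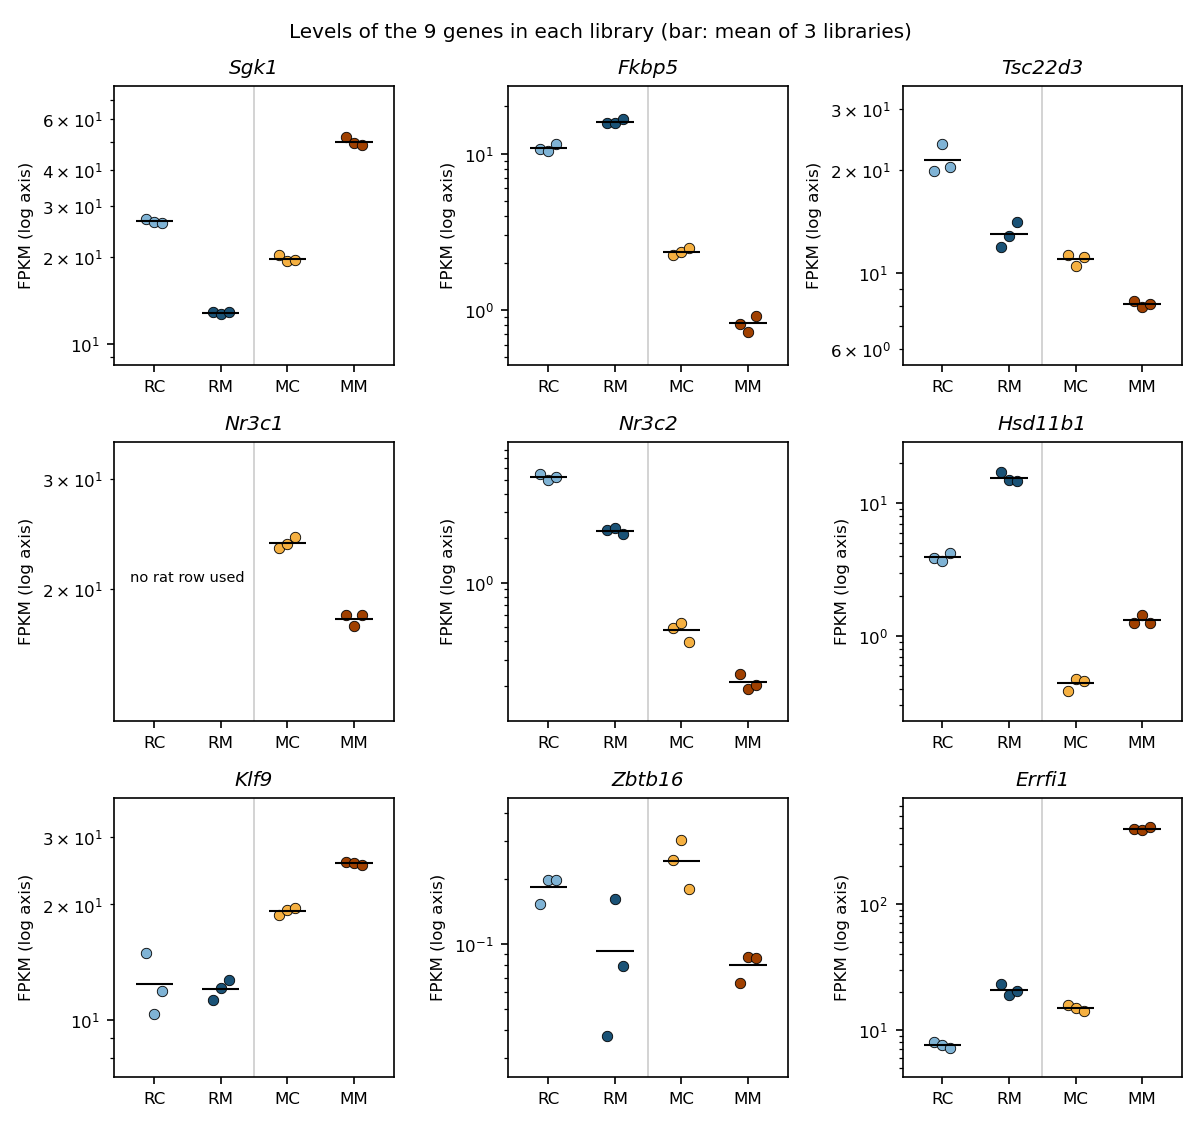
FPKM of each gene (log axis, own range in each panel) in the 3 libraries of RC, RM, MC and MM; points are libraries and bars are group means. Sgk1 was lower in RM than in RC but higher in MM than in MC, Fkbp5 showed the reverse, and Errfi1 reached 386.3 to 402.0 FPKM in MM.

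Across the 8 rat genes, 6 had RM values that did not overlap the RC values, against 47.8% of all 13303 rat genes tested, with 25.5% higher and 22.3% lower, and in the fit across all rat genes 6 of 8 were called at an adjusted P under 0.05, against 35.1% of all genes. Of these 6, 3 were higher in RM (Hsd11b1, Errfi1, Fkbp5) and 3 were lower (Nr3c2, Sgk1, Tsc22d3). In the mouse, all 9 had MM values that did not overlap the MC values, against 80.3% of the 14774 mouse genes tested, and 9 of 9 were called, against 75% of all genes, with 4 higher and 5 lower. Over all mouse genes, 25.4% lay wholly above and 54.9% wholly below their MC values. By the study's criteria for changed genes (a fold change over 0.85, read here as a log2 value since the methods give no scale, an unadjusted P under 0.05 and at least 1 FPKM), 4 rat members were called, against 8.54% of all rat genes, and 4 mouse members, against 25.6%. No support is read from these counts, because the genes were chosen from these contrasts. The median log2 fold change of the group was -0.40 in rat, beside 0.01 over all rat genes, and -0.13 in mouse, beside -0.02 over all mouse genes. All 17 rows passed the filter on low counts. In such bulk samples, a change in the share of a cell type and a change of RNA per cell cannot be told apart. Fold changes below are the fitted log2 values with TMM scaling, which sets most genes to no change, and their standard errors (SE).

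Sgk1 encodes a serine/threonine kinase that controls ion channels, transporters and cell survival. Its rat level was 27.1, 26.4 and 26.2 FPKM in RC and 12.9, 12.7 and 12.9 FPKM in RM. The RC libraries were all above the RM libraries, and the 3 libraries of a group lay close together. The group means were 26.6 ± 0.476 and 12.8 ± 0.124 FPKM (SD, n = 3), a log2 fold change of -1.07 (SE 0.067). In mouse the order was the other way, with 20.2, 19.3 and 19.5 FPKM in MC and 51.9, 49.6 and 48.6 FPKM in MM. Here all MM libraries were above all MC libraries. The means were 19.7 ± 0.481 and 50.02 ± 1.69 FPKM (SD, n = 3), and the log2 fold change was 1.63 (SE 0.037). On the log2 scale the mouse change exceeded that of rat by 2.69 (SE 0.071). Among the 10912 genes tested in both species, 5.18% were called lower in RM and higher in MM as Sgk1 was.

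Fkbp5 encodes a cochaperone that lowers hormone binding by the glucocorticoid receptor and is used widely as a readout of receptor activity. In rat it measured 10.6, 10.3 and 11.5 FPKM in RC and 15.7, 15.6 and 16.5 FPKM in RM. Every RM library exceeded every RC library, and the log2 fold change was 0.55 (SE 0.075). In mouse it measured 2.24, 2.34 and 2.48 FPKM in MC and 0.817, 0.724 and 0.918 FPKM in MM, so every MM library was below every MC library. The mouse log2 fold change was -1.25 (SE 0.10), and the mouse change minus the rat change was -1.79 (SE 0.12). Calls in this combination, higher in RM and lower in MM, were made for 7.29% of the genes tested in both species. Sgk1 and Fkbp5, both glucocorticoid-induced in other settings, thus differed from control in opposite directions within each species, as the plot of changes shows.

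**Figure D2:**
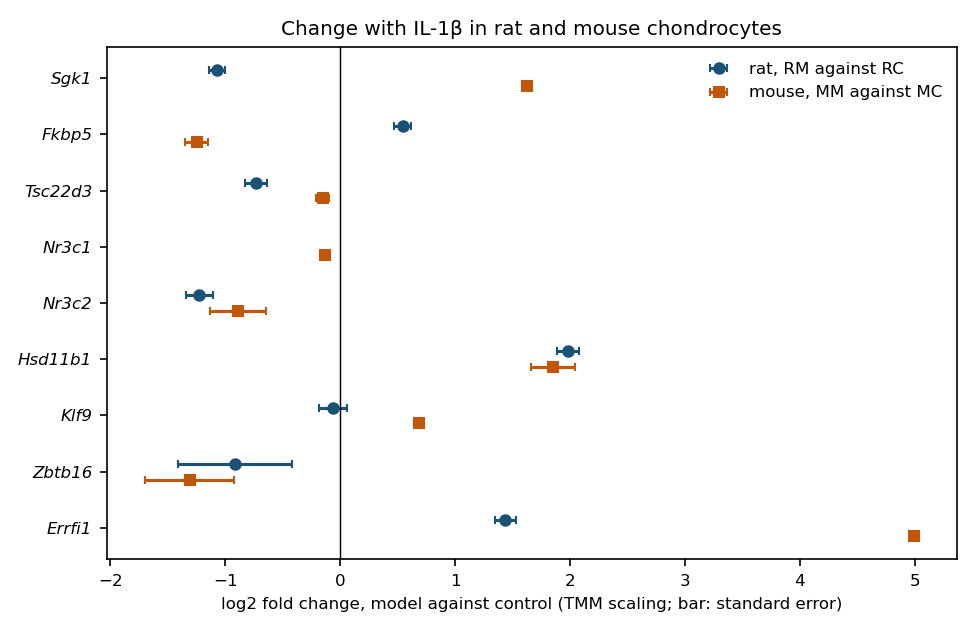
Log2 fold change of model against control for each gene in rat (circles) and mouse (squares), with the standard error as a horizontal bar; rat Nr3c1 has no value. Sgk1 and Fkbp5 lie on opposite sides of 0 in the 2 species, while Tsc22d3, Nr3c2, Hsd11b1, Zbtb16 and Errfi1 lie on the same side. Klf9 lies near 0 in rat, at -0.06, and above 0 in mouse.

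Tsc22d3 encodes GILZ, a leucine zipper protein that restrains NF-κB and AP-1 signalling. Rat Tsc22d3 was at 19.8, 23.7 and 20.3 FPKM in RC and at 11.95, 12.8 and 14.1 FPKM in RM. The groups did not overlap, and the log2 fold change was -0.73 (SE 0.097). Mouse Tsc22d3 was at 11.3, 10.5 and 11.1 FPKM in MC and at 8.28, 7.96 and 8.16 FPKM in MM. The MM libraries were again the lower ones, with a small log2 fold change of -0.15 (SE 0.057) that was -0.43 when libraries were scaled by their totals alone. The mouse call was not made by DESeq2, nor by edgeR without MC replicate 1 or without MM replicate 2.

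Klf9 encodes a zinc finger transcription factor that links glucocorticoid signals to the circadian clock and to growth arrest. In rat it was the measured member with the widest spread among its control libraries at a level above 1 FPKM, with 15.0, 10.4 and 11.95 FPKM in RC. The RM libraries, at 11.3, 12.1 and 12.8 FPKM, lay within that range. The log2 fold change was -0.06 (SE 0.12), and it lay between -0.18 without RC replicate 2 and 0.08 without RC replicate 1, so its sign rested on single libraries. In mouse the level was 18.8, 19.3 and 19.6 FPKM in MC and 25.8, 25.6 and 25.3 FPKM in MM. All MM values were higher, with a log2 fold change of 0.69 (SE 0.044), or 0.41 with scaling by library totals.

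Zbtb16 encodes PLZF, a transcriptional repressor with strong glucocorticoid induction in many cells. It was the lowest of the genes measured in each of the 4 groups of libraries. Rat libraries held 10, 12 and 11 reads in RC and 2, 11 and 5 reads in RM, which overlap in FPKM. The log2 fold change of -0.92 (SE 0.50) became -1.58 without RM replicate 2 and -0.59 without RM replicate 1. Mouse libraries held 22, 27 and 17 reads in MC and 7, 9 and 8 reads in MM. These did not overlap, but the log2 fold change of -1.31 (SE 0.39) rests on 66 and 24 reads in all.

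Errfi1 encodes MIG6, a feedback inhibitor that binds the EGF receptor and blocks its kinase, and whose loss in mouse joints leads to cartilage overgrowth and joint degeneration. In rat it was at 7.99, 7.61 and 7.20 FPKM in RC and at 23.1, 19.0 and 20.4 FPKM in RM. Each RM library was above each RC library, with a log2 fold change of 1.44 (SE 0.092). In mouse it was at 15.9, 14.9 and 14.1 FPKM in MC and at 388.7, 386.3 and 402.0 FPKM in MM. This was a 31.9-fold difference after TMM scaling, a log2 fold change of 4.99 (SE 0.036), and the mouse change exceeded the rat change by 3.56 (SE 0.10). Errfi1 was the largest change among the 9 mouse genes and the highest of them in MM. In RM it was the highest of the 8 genes measured in rat, where Nr3c1 has no value.

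Among the receptors, mouse Nr3c1 was at 23.3, 23.6 and 24.2 FPKM in MC and at 18.1, 17.4 and 18.1 FPKM in MM. The groups did not overlap, but the log2 fold change was only -0.13 (SE 0.036) with TMM scaling and -0.41 with scaling by library totals. Nr3c1 was the highest of the 9 genes in MC, at a mean of 23.7 FPKM. Rat Nr3c2 was at 5.43, 5.01 and 5.22 FPKM in RC and at 2.28, 2.36 and 2.13 FPKM in RM, a log2 fold change of -1.23 (SE 0.12) with no overlap. Mouse Nr3c2 was low, at 0.496, 0.532 and 0.396 FPKM in MC and 0.239, 0.190 and 0.203 FPKM in MM, from 159 and 78 reads in all. It too was lower in every model library, with a log2 fold change of -0.89 (SE 0.24), and the mouse change minus the rat change was 0.34 (SE 0.22).

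Hsd11b1 had the largest change of the 8 genes measured in rat. It was at 3.87, 3.66 and 4.22 FPKM in RC and at 17.1, 15.0 and 14.8 FPKM in RM. The groups were far apart, with a 3.95-fold difference and a log2 fold change of 1.98 (SE 0.092). In mouse it was at 0.385, 0.475 and 0.458 FPKM in MC and 1.24, 1.44 and 1.25 FPKM in MM, from 97 and 319 reads. All MM libraries were higher, with a log2 fold change of 1.85 (SE 0.19), so the 2 species differed by only -0.13 (SE 0.18) in their change.

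The order of the group by FPKM also differed between control and model libraries within each species. In RC the order was Sgk1, Tsc22d3, Klf9, Fkbp5, Errfi1, Nr3c2, Hsd11b1 and Zbtb16, where Klf9 and Fkbp5 overlapped between libraries. In RM, Errfi1 came first, then Fkbp5 and Hsd11b1, which overlapped, then Tsc22d3, Sgk1 and Klf9, each overlapping the next, then Nr3c2 and Zbtb16. In MC the order was Nr3c1, Sgk1 and Klf9, Errfi1, Tsc22d3, Fkbp5, Nr3c2 and Hsd11b1, and Zbtb16, where Sgk1 overlapped Klf9 and Nr3c2 overlapped Hsd11b1. In MM, Errfi1 was followed by Sgk1, Klf9, Nr3c1, Tsc22d3, Hsd11b1, Fkbp5, Nr3c2 and Zbtb16, with no overlap between neighbours.

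**Figure D3:**
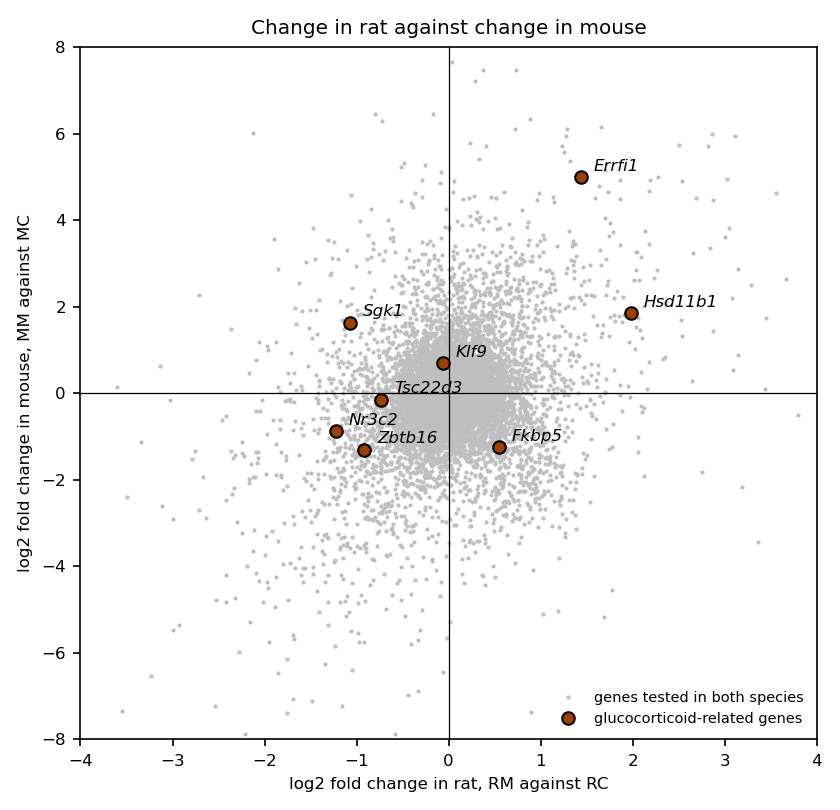
Log2 fold change in rat (RM against RC) against that in mouse (MM against MC) for the 10912 genes tested in both species (grey; 44 lie outside the axes) and the 8 glucocorticoid-related genes with values in both (brown). Sgk1 lies in the upper left and Fkbp5 in the lower right, and Errfi1 and Hsd11b1 in the upper right.

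Genes with the most similar profile were found as those with the smallest root mean square difference from a member in centred log2 CPM over the 12 libraries, among 9522 genes. Nearest to Sgk1 were Abcc4 (0.089), Jam2 (0.0996), Masp1 (0.107), Sh3kbp1 (0.126) and Rnf144a (0.126). Abcc4, an exporter of cyclic nucleotides, changed by -1.07 (rat) and 1.53 (mouse) on the log2 scale. Nearest to Fkbp5 were Ebp (0.0914), a sterol isomerase, Rpa1 (0.0944), a subunit of the single-stranded DNA binding complex of replication and repair, and Mthfd1 (0.0996), an enzyme of folate metabolism. Nearest to Tsc22d3 were Dyrk1b (0.0443), Sars (0.0619) and Mthfd2 (0.0623). Within the group itself the closest pair was Tsc22d3 and Nr3c2, at 0.338, and Sgk1 was nearest to Klf9, at 0.502. The likeness was a basis of choice, so no test was made of it.

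The surrounding pathway was described with 8 lists that also had been written with earlier results of these data known. Of their 106 genes tested in rat, 32 rose and 18 fell at an adjusted P under 0.05 by edgeR, and of 110 tested in mouse, 63 rose and 31 fell. The background was 18.3% of all rat genes higher and 16.8% lower, and 37.4% of all mouse genes higher and 37.7% lower. The median log2 fold change of these genes was 0.10 in rat and 0.33 in mouse. With libraries scaled by their totals alone, which moves the median change over the mouse table from -0.02 to -0.30 (log2), the mouse split was 48 higher and 46 lower. The change differed between the species for 79 of the 103 genes tested in both, against 63.8% of all shared genes, with a signed log2 fold change that was higher in mouse for 48 and higher in rat for 31, or 37 and 45 with scaling by library totals. The sign counts here and not the size, so a gene with a deeper fall in mouse is among the 31. With TMM scaling, 8 of the 103 were called lower in RM and higher in MM, as Sgk1 was, against 5.18% of all shared genes, and 3 were called higher in RM and lower in MM, as Fkbp5 was, against 7.29%. The first 8 were Per1, Tsc22d1, Nedd4l, Irs2, Fbxo32, Klf2, Sphk1 and Epgn, and the other 3 were H6pd, Glul and Tgfa. They are listed because they met both calls, seen in the values. Of the 8 mouse rises, that of Klf2, at a log2 fold change of 0.25, lies within the shift between the 2 scalings. With library totals the shift is downwards, so it deepens small mouse falls such as that of H6pd (-0.23). The changes given for single genes of the lists below are log2 fold changes with TMM scaling.

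**Figure D4:**
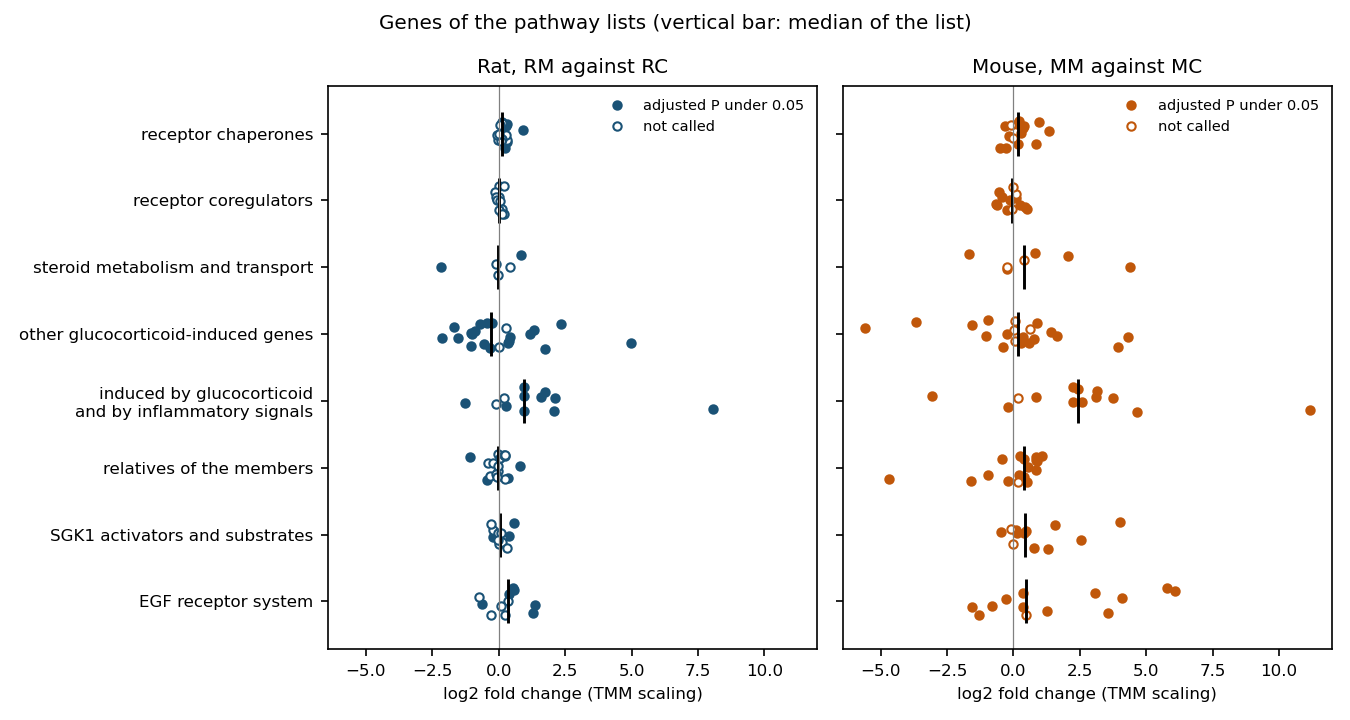
Log2 fold change of each tested gene of the 8 lists in rat (left) and mouse (right), filled where the adjusted P was under 0.05, with the list median as a vertical bar; vertical position within a list is arbitrary. The lists of receptor chaperones and coregulators have medians near 0, with single chaperones above, such as Hsp90aa1 at 0.91 in rat and 1.32 in mouse, and genes induced by both glucocorticoid and inflammatory signals have medians of 0.96 in rat and 2.44 in mouse.

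The receptor is assembled and held by chaperones and then works with coregulators. Of 15 chaperones and cochaperones tested, 5 rose and 0 fell in rat by edgeR (6 and 0 at an unadjusted P under 0.05, and 6 and 0 by DESeq2), where 35.1% of all rat genes were called and 18.3% rose, while 9 rose and 4 fell in mouse, or 5 and 8 with scaling by library totals. Hsp90aa1, a form of the chaperone HSP90 that holds the receptor ready for hormone, rose in both species, by 0.91 in rat (SE 0.22, edgeR adjusted p = 0.0103) and by 1.32 in mouse (SE 0.028, edgeR adjusted p = 1.24e-47). Rat Hsp90aa1 was at a mean of 5.26 FPKM in RC, beside 797 FPKM for Hsp90ab1. The rat change of Hsp90aa1 was 0.65 without RM replicate 1 and 1.09 without RC replicate 1. Stip1, a partner of HSP90, rose by 0.25 in rat, a call lost without RM replicate 2, and by 0.84 in mouse. Hspa8 rose by 0.26 in rat, and was -0.03 in mouse (edgeR adjusted p = 0.293), or -0.31 and called with scaling by library totals. Fkbp4, the cochaperone that competes with the Fkbp5 product and favours hormone binding, was at 0.06 in rat (edgeR adjusted p = 0.52) and fell by 0.52 in mouse (edgeR adjusted p = 1.94e-15). In mouse, therefore, Fkbp4 was lower in MM, as Fkbp5 was. Of the coregulators, 0 of 12 were called in rat by edgeR and 0 by DESeq2, and 2 had an unadjusted P under 0.05, Med1 and Nrip1, at 0.18 and 0.21. In mouse, 4 of 13 rose, among them Ep300 by 0.49, and 6 fell, among them Carm1 at -0.61. With scaling by library totals 2 were higher and 10 lower. For both lists, the share over all mouse genes was 75% called, with 37.4% higher and 37.7% lower.

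Around Hsd11b1, the list of steroid metabolism and transport had 5 genes tested in rat, with 1 rise and 1 fall, and 7 in mouse, with 3 rises and 2 falls. The share called over all genes was 35.1% in rat and 75% in mouse. H6pd, which supplies the Hsd11b1 enzyme with its cofactor, rose in rat by 0.86 (SE 0.098, edgeR adjusted p = 8.74e-05), from a mean of 5.49 to 10.04 FPKM. In mouse it fell, with a log2 fold change of -0.23 (SE 0.036, edgeR adjusted p = 5.71e-08), so that H6pd and Hsd11b1 were both higher in RM, whereas in MM H6pd was lower and Hsd11b1 higher. Hsd11b2, the enzyme that inactivates glucocorticoid, had 7 reads in RC and 8 in RM and was not tested. In mouse it fell, with a log2 fold change of -1.66 (SE 0.40) from 74 to 21 reads. Serpina6, corticosteroid-binding globulin, fell in rat from a mean of 18.5 to 4.15 FPKM (log2 fold change -2.17), and had 3 and 1 reads in mouse. The drug and steroid exporters Abcb1a and Abcb1b rose in mouse by 4.40 and 2.06. They are close relatives, and how the counting treated reads that match both is not given in the sources used here.

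Of other genes known to be induced by glucocorticoids, 8 of 22 rose and 12 fell in rat, and 9 of 20 rose and 7 fell in mouse, or 7 and 10 with scaling by library totals. Both directions were thus present in the list in each species, as they were among the 9 genes. Over all genes, 18.3% rose and 16.8% fell in rat, and 37.4% rose and 37.7% fell in mouse. Per1, a clock gene, fell in rat (log2 fold change -0.35, edgeR adjusted p = 0.0228), a call lost without 4 of the 6 rat libraries in turn, and rose in mouse by 1.43. The mTOR inhibitor Ddit4 rose by 0.36 in rat, where the call was lost without RC replicate 3, RM replicate 2 or RM replicate 3, and by 1.64 in mouse. Klf15 fell in both (-0.56 and -1.03), as did the cell cycle inhibitor Cdkn1c (-2.13 and -3.66). Angptl4 rose strongly in both (4.98 and 4.32). Pdk4 was at 0.28 in rat (edgeR adjusted p = 0.326) and rose by 0.88 in mouse. The metallothionein Mt1 rose by 1.76 in rat and 3.93 in mouse, and rat Mt2A by 2.36. Mouse Mt2 had 2 reads in MC and 16 in MM beside 12023 and 166001 for Mt1, and counts of these close relatives are uncertain.

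Of the genes induced both by glucocorticoids and by inflammatory signals, 9 of 12 rose and 1 fell in rat, and 10 of 13 rose and 2 fell in mouse. Over all genes, 18.3% rose in rat and 37.4% in mouse. Nothing is read from these counts, because the list was written with earlier results known and its genes respond to inflammatory signals by definition. Dusp1, a phosphatase that switches off MAP kinases, rose by 0.26 in rat (edgeR adjusted p = 0.0341), a call lost in 5 of the 6 fits that leave out 1 library, and by 2.44 in mouse. Nfkbia, which encodes the NF-κB inhibitor IκBα, rose by 2.09 and 3.15, and the transcription factor gene Cebpd by 2.13 and 3.75. Lcn2, an iron-carrier protein of innate immunity, rose by 8.07 in rat and 11.16 in mouse, where it reached a mean of 2470 FPKM.

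Of 17 relatives of the members tested, such as other kinases of the SGK family and other KLF factors, 2 rose and 2 fell in rat and 11 rose and 5 fell in mouse, or 8 and 5 with scaling by library totals. Beside these counts, 35.1% of all rat genes and 75% of all mouse genes were called. Sgk3, a kinase related to Sgk1, was at -0.05 in rat (edgeR adjusted p = 0.776) and fell in mouse (-1.59), where Sgk1 was higher. Sgk2 had 11 and 29 reads in rat and 0 and 5 in mouse and was not tested. Tsc22d1 fell in rat (-0.45, edgeR adjusted p = 0.00022) and rose in mouse by 0.83 (edgeR adjusted p = 2.32e-36). Pgr, which encodes the progesterone receptor, was at -0.09 in rat (edgeR adjusted p = 0.584) and fell in mouse (-4.69), from 209 reads to 7, with -5.80 without MM replicate 2 and -4.08 without MM replicate 1. Klf10 rose in both (0.82 and 0.51), and Klf6 was at 0.20 in rat, called without RC replicate 1 only, and rose by 1.07 in mouse.

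Of 12 genes around the Sgk1 kinase, 2 rose and 1 fell in rat, where 35.1% of all genes were called, and 9 rose and 1 fell in mouse, where 37.4% of all genes rose, or 7 and 4 with scaling by library totals. Rictor, a part of the mTORC2 complex that activates SGK1, rose by 0.56 in rat, a call lost in 5 of the 6 fits that leave out 1 library, and by 0.76 in mouse. The substrates Ndrg1 and Ndrg2 were at 0.11 (edgeR adjusted p = 0.285) and 0.30 (edgeR adjusted p = 0.0669) in rat and rose by 2.55 and 4.02 in mouse. Rat Ndrg2 was called in the fit without RC replicate 2. Foxo3, a transcription factor that SGK1 inactivates, rose by 0.39 in rat and 1.55 in mouse. Nedd4l, a ubiquitin ligase inhibited by SGK1, fell in rat at the edge of the threshold (-0.21, edgeR adjusted p = 0.0421), a call lost in 5 of the 6 fits that leave out 1 library and with scaling by library totals, and rose in mouse by 1.32. These are transcript levels and carry no information on phosphorylation by the kinase.

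The EGF receptor system, on which the Errfi1 protein acts, rose in parts in both species. Of 11 genes tested in rat, 5 rose and 1 fell, and of 13 in mouse, 8 rose and 4 fell, or 6 and 4 with scaling by library totals. Among all genes, 35.1% were called in rat and 75% in mouse. Egfr itself rose by 0.38 in rat (edgeR adjusted p = 0.00439) and 1.25 in mouse (edgeR adjusted p = 5.68e-41). The ligand gene Hbegf rose by 1.36 and 3.06. Ereg, encoding epiregulin, rose by 1.29 in rat and 6.10 in mouse, where its mean went from 1.65 to 93.4 FPKM. Areg, encoding amphiregulin, was at 0.24 in rat (edgeR adjusted p = 0.309) and rose by 5.78 in mouse, from 4 reads in MC to 218 in MM. All 4 were in MC replicate 3, so the size of this change rests on that library. Without it the fitted value was 9.23, against libraries at 0 and so dependent on the prior count, and without MC replicate 1 it was 5.24. Lrig1, another inhibitor of EGF receptors, was at 0.34 in rat (edgeR adjusted p = 0.117) and rose by 4.07 in mouse. Of the 11 genes of this list tested in both species, 9 differed in their change, against 63.8% of all shared genes. The signed log2 fold change was higher in mouse for 7, among them Egfr, Hbegf, Ereg, Areg and Lrig1. That was also the order for Errfi1, which was not tested. It was higher in rat for 2, Tgfa (mouse change minus rat change -1.81) and Cbl (-0.23).

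The labelled cell type was checked on its markers. All 7 chondrocyte markers were measured in both species, and all 7 fell in both, with summed levels of 3703 to 4343 FPKM in RC, 1282 to 1344 in RM, 1970 to 2004 in MC and 163 to 176 in MM. Summed macrophage and leukocyte markers were at 19.5 to 22.4 FPKM in RC, 31.2 to 34.2 in RM, 7.33 to 7.49 in MC and 34.4 to 37.0 in MM. Of the 4 tested in each species, 2 rose and 2 fell in rat and 4 rose in mouse. Most of that sum was Cd14 and Cd68, whereas Ptprc, the defining leukocyte gene, had 20 and 16 reads in rat and 3 and 1 in mouse, and mouse Itgam was listed at 0 in every library. The 6 fibroblast and synovial markers summed to 2767 to 3217 FPKM in RC, 2304 to 2412 in RM, 1936 to 1977 in MC and 717 to 718 in MM, with 1 rise and 2 falls in rat and 3 of each in mouse. The adipocyte markers summed to 6.63 to 8.58 FPKM in RC and 45.5 to 70.6 in RM, nearly all of it Fabp4. Of the 2 tested in rat, 1 rose and 1 fell. In mouse these markers summed to 28.5 to 30.6 FPKM in MC and 11.1 to 11.7 in MM, where 3 of 4 tested fell. Adipoq had 15 and 6 reads in rat and 373 and 39 in mouse. Endothelial markers summed to at most 0.505 FPKM and muscle markers to at most 4.30 FPKM in any library. Called genes made up 35.1% of all rat genes and 75% of all mouse genes. The part of these markers in the changes of the 9 genes was not tested.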

How the data were processed

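RNA-seq libraries of rat and mouse chondrocytes were analysed, 12 in all. Per the labels, the submitters' processing notes name HISAT2, HTSeq 0.11.2, GRCm38 and Rnor_6.0, without roles, and no source used here gives the strand setting. The authors deposited raw counts per Ensembl gene. They also deposited FPKM values, which equalled count over gene length and library total within 0.1% for 100% of the values above 0. The deposited tables held no column that was left out.

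Counts were analysed per species in R 4.3.3 with edgeR 4.0.16 (filterByExpr, TMM, glmQLFit, glmQLFTest), with Benjamini-Hochberg adjustment over all genes tested and a threshold of 0.05. The difference between species was fitted over 10912 genes shared by symbol. The BCV, edgeR's measure of the spread between libraries, was 0.106 in rat and 0.0318 in mouse. Pairs of replicates differed beyond counting noise. Tests were checked on simulated data with 200 genes changed by 1.5 on the log2 scale: edgeR recovered 99.5% of them in rat and 100% in mouse, with 3.86% and 0.99% of calls false. The changed genes were drawn from rows above a count floor, with a fixed spread for each species. These rates therefore do not carry over to rows with few reads, or to data where 35.1% (rat) and 75% (mouse) of genes were called. An exact permutation test of 3 against 3 libraries cannot give a p under 0.1.

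Alternatives were DESeq2 1.42.0, limma 3.58.1 on log2(FPKM + 1) and log2(FPKM + 0.1), RLE factors, library totals alone, no filter, the replicate number as a block, leaving out each library, and the criteria of the study (fold change over 0.85, taken here as log2 because no scale is stated, unadjusted P under 0.05, FPKM of at least 1). The members and all gene lists were chosen with earlier results of these data known. Named were all members, and from each list and species the 2 genes of lowest adjusted P with a mean of at least 1 FPKM in a group, besides 21 chosen genes of the pathway, among them Hsd11b2, H6pd, Fkbp4, Egfr and Sgk3, and the 5 or 3 genes most like Sgk1, Fkbp5 and Tsc22d3. A result of 1 gene that the rule names is not reported here. Genes of the marker lists are named beside their list. Log2 CPM used a prior count of 2. Promoter windows were taken from RefSeq (GRCr8).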

Additional observations from a re-analysis of the deposited data

Results flagged for a closer look

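Sgk1 and Fkbp5 were lower in one species and higher in the other in every model library, with a change in mouse minus change in rat of 2.69 and -1.79 on the log2 scale. These differences were not tested, because the genes were chosen for them.

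Of the 42 other genes named by rule apart from those picked for likeness, 34 could be tested for a difference between the species, and 30 differed at an adjusted P under 0.05 by edgeR. Many of them were named for a low adjusted P within a species, so nothing is read from this share beside the 63.8% of all shared genes. The values that follow are the mouse change minus the rat change on the log2 scale. Around the receptor, it was -0.58 for Fkbp4, -0.29 for Hspa8, 0.59 for Stip1, -0.52 for Carm1 and -1.08 for H6pd. Among glucocorticoid-induced genes, it was 1.77 for Per1, 1.28 for Ddit4, -0.48 for Klf15, 0.61 for Pdk4, 2.17 for Mt1, -0.66 for Angptl4 and -1.53 for Cdkn1c. For those that inflammatory signals also induce, it was 2.18 for Dusp1, 1.06 for Nfkbia, 1.62 for Cebpd and 3.09 for Lcn2. Among relatives, it was -1.55 for Sgk3, 1.28 for Tsc22d1, -4.61 for Pgr, -0.30 for Klf10 and 0.87 for Klf6. Around the SGK1 kinase, it was 1.53 for Nedd4l, 2.45 for Ndrg1, 3.72 for Ndrg2 and 1.16 for Foxo3. In the EGF receptor system, it was 0.88 for Egfr, 1.70 for Hbegf, 5.55 for Areg (its mouse control level rests on 4 reads of MC replicate 3), 4.81 for Ereg and 3.73 for Lrig1.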

How the results depend on the processing

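For the members and the genes named by rule, no called log2 fold change turned its direction under the alternatives run. Klf2, Irs2, Fbxo32, Sphk1, Epgn, Glul and Tgfa were not run through them. Under the criteria of the study, the genes of the pathway lists called were 27 in rat, against 50, and 39 in mouse, against 94. The members called in mouse were 4, against 9, namely Errfi1, Hsd11b1, Sgk1 and Fkbp5. These criteria called 8.54% of all rat genes and 25.6% of all mouse genes. For the fits below, only the shares of the main fits are given. There, 35.1% of all rat and 75% of all mouse genes were called. Of all shared genes, 63.8% differed between the species. Leaving out 1 library at a time gave 6 of the rat members in every fit and 8 to 9 of the mouse members. It gave 41 (without RC replicate 3) to 60 (without RC replicate 1) pathway genes in rat, 91 to 94 in mouse, and 71 to 78 pathway genes that differed between the species. No pairing by replicate number was seen. The correlation of same-numbered deviations was 0.024, -0.098 and 0.085 in rat and 0.001, 0.015 and 0.005 in mouse. Differently numbered rat libraries reached 0.162 (RC replicate 1 with RM replicate 2) and -0.185 (RC replicate 1 with RM replicate 3). With 3 libraries per group, these values cannot exclude a pairing. With the replicate block, 6 rat and 9 mouse members, 50 and 95 pathway genes, and 78 differences were called. Of 1248 alternative values of the other named genes, 31 were lost as calls and 13 gained. Of 221 for the members, 31 moved by more than the spread between replicates, all with another scaling, with log2(FPKM + 1) or log2(FPKM + 0.1), or for rat Zbtb16 without RM replicate 2. Depth limits Zbtb16 in both species and Nr3c2 and Hsd11b1 in mouse, which rest on few reads.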
